A study of Mus musculus with 12 samples.

Results

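The class I olfactory receptor genes of the mouse were examined in the H3K9me3 data of neural progenitors that lack Setdb1. Members were the listed regions whose gene symbol begins with Olfr and a digit, on chromosome 7, with a start between 102000001 and 105500000 (mm10). The authors' deposited table held 57 such regions, at 51 receptor genes, among 50654 listed regions in all. A further 154 listed regions of the same window served as the comparison, and 137 of them carried no gene symbol. The rule used neither the direction nor the size of any difference, but a region is in the table only if the authors selected it for a difference.

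The knockout (KO) group consisted of Setdb1 Nestin-KO animals and the control group of Setdb1 wild-type (WT) animals, both C57BL/6 embryos at E15.5 (days after conception). Cells were neural progenitors of the ganglionic eminence grown as neurospheres, floating balls of dividing cells. Native ChIP-seq, which precipitates chromatin without crosslinking, was done on 100000 nuclei per library for H3K9me3 and for H3K27ac, with 3 KO and 3 WT animals for each mark. The label gives Nestin as what defines the knockout, a gene active in neural progenitors, and the sources used here do not state the recombinase or the part of Setdb1 that is deleted. For H3K9me3 the KO animals were 3 males and the WT animals 1 male and 2 females, so sex and genotype cannot be told apart fully for this mark. The first number in their titles is partly mixed with genotype too, with 1 number held by 2 KO animals, 1 by 2 WT animals and 1 by 1 KO and 1 WT animal. For H3K27ac each genotype had 2 males and 1 female.

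Olfactory receptors are odorant receptors of the nose, and each olfactory sensory neuron transcribes a single receptor gene from a single allele. Class I receptors, the fish-like class, sit in a single cluster on mouse chromosome 7 that also holds the beta-globin genes, and they are used mainly in the dorsal zone of the olfactory epithelium. In most other cells receptor genes are silent, and H3K9me3, a mark of silenced chromatin, covers them in olfactory neurons that have not chosen them. SETDB1 is one of several enzymes that place this mark.

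The RefSeq table of GRCm38.p6 held a promoter window, from 250 bases before to 50 after the annotated start, for 40 of the 51 genes, and not for the other 11. In 35 of these 40 (87.5%) the 3 bases after the start were ATG, against 5.83% of 32851 windows of all genes, so most of these annotated starts are the start of the coding sequence and not of the transcript. The windows are printed, 5' to 3', for the receptors with the largest listed rise (Olfr618, chr7:103597068-103597367, plus strand), for 2 whose listed region spans the whole gene (Olfr620, chr7:103612302-103612601, minus strand, and Olfr584, chr7:103085270-103085569, plus strand), and for 1 that holds a homeodomain-type letter run and lies wholly within its listed region (Olfr593, chr7:103211612-103211911, plus strand). Capitals mark the ATG and TAATTA.

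Olfr618: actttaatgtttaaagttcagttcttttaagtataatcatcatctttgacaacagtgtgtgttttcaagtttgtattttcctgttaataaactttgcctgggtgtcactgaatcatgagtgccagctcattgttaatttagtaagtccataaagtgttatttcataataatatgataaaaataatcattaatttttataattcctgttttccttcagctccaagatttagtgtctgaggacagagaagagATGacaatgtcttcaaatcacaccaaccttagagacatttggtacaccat
Olfr620: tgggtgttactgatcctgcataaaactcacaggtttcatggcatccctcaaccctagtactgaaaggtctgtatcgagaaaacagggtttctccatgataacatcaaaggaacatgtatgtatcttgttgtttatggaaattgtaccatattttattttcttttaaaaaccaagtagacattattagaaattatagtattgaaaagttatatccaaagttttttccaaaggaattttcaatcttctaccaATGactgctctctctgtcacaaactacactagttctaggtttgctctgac
Olfr584: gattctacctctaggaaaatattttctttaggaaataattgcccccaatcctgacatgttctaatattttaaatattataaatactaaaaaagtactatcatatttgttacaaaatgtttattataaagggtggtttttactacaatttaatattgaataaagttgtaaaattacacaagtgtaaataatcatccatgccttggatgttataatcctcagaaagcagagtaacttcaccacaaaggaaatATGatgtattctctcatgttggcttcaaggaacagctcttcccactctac
Olfr593: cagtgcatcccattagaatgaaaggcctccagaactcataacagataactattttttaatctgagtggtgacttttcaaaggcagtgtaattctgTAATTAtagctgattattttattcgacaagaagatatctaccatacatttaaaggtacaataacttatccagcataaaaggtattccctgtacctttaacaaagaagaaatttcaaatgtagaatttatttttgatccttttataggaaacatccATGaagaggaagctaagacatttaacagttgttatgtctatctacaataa

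The windows of the 40 receptors were poor in G and C, with a median of 36.8%, against 37.7% in 69 windows of class I receptors without a listed region and 52.7% over all genes. The EBF-type letters CCCNNGGG occurred in 2 of 40 windows (5.0%), against 1.45% of the 69 and 13.7% of all genes. The homeodomain-type letters TAATTA occurred in 5 of 40 (12.5%), against 15.9% of the 69 and 5.29% of all genes. Both runs read the same on both strands and cannot overlap each other, and a match is a run of letters and no proof of a bound site. Of the 40 windows, 14 lay wholly within a listed region and 25 were touched by one.

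H3K9me3 was listed as higher in KO progenitors at nearly all of the receptor regions. By the authors' deposited table, 56 of the 57 regions (98.2%) were higher in KO and 1 (1.75%) was lower, whereas 28.9% of all listed regions were higher and 71.1% lower. The median log2 fold change of KO over WT in the authors' deposited table was 0.94 at the receptor regions (quartiles 0.79 and 1.12, range -0.94 to 2.08), against -0.94 over all listed regions. The 154 other regions of the window had nearly the same values in the authors' deposited table, with 143 higher (92.9%), 11 lower and a median of 0.91. The receptor regions thus stood closer to their surroundings than to the table as a whole, and neighbouring regions are not independent of each other.

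The mean of the 3 normalised read values lay between 22.0 and 126 in KO (median over regions 52.6) and between 13.5 and 60.9 in WT (median 27.9). KO over WT was 0.52-fold to 4.23-fold, with a median of 1.92-fold. Per kb, so that regions can be compared with each other, the level ran from 22.0 to 55.6 normalised reads in KO and from 11.2 to 42.3 in WT. Summed over the 57 regions, the listed KO libraries held 3194, 2902 and 3685 normalised reads, against 1461, 1758 and 1883 in the listed WT libraries (mean 3260 ± 396 and 1700 ± 217, SD, n = 3 each). Every KO sum lay above every WT sum. The regions were listed for a difference in these same libraries, 56 of the 57 as higher, so this order is no separate support. Taken region by region, the first listed KO value exceeded the highest WT value at 51 of the 57 regions, the second at 54 and the third at 56. All 3 did so at 50 of the 57 (87.7%, against 20.2% of all listed regions). Single values were not counted over all listed regions.

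The third listed KO value was the highest KO value at 38 regions, the second was the lowest at 28 and the first at 24. The first listed WT value was the lowest WT value at 29. Over all listed regions the median normalised reads were 25.5, 29.6 and 48.8 in the listed KO libraries and 53.2, 56.6 and 50.8 in WT. There too the third KO library stood above the other KO libraries, and it came near the WT libraries. The values rest on few reads. The median receptor region held 20, 108 and 73 reads in the listed KO libraries and 13, 34 and 45 in the listed WT libraries, recovered from the steps between the low values of each library. The first position of each genotype was therefore the least precise, and the table does not say which animal each position belongs to.

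With the spread between animals taken into account, 6 receptor regions passed limma on log2(value + 1) at a Benjamini-Hochberg adjusted p of 0.05, all 6 higher in KO (10.5% of the 57, against 1.24% of all listed regions called higher), and 51 did not pass. limma called 0 receptor regions lower (14.9% of all listed regions were called lower), and limma-voom on the recovered reads also called 0 lower. The adjusted p over the 57 regions ran from 0.0471 to 0.169. The limma calls lie close to the threshold and depend on the setting. All regions fitted had been listed for a difference in these same libraries, so the adjusted p cannot be read as an unbiased error rate. limma-voom called 33 of 57 higher (57.9%, against 14.1% of all listed regions, with 58% called lower). Leaving out any listed value but the third KO value ended all 6 calls. These same fits called 0 of the 50654 regions in either direction, apart from 10 higher without the third WT value, so the loss was not particular to the receptors. Without the third KO value 17 receptor regions were called higher and 1 lower, against 5.89% of all listed regions called higher and 61.1% lower. Among the other regions of the window limma called 17 of 154 higher and 1 lower, and limma-voom 91 (59.1%) and 6.

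The balance of higher and lower regions over the whole table depends on the scaling of the libraries. With each library scaled to the median ratio over all listed regions, the median log2 fold change over all of them became -0.17 and that of the receptor regions 1.79. A G-test on summed values, the authors' kind of test, then called 56 receptor regions higher (31.7% of all listed regions were called higher) and 0 lower (38.9% of all). This scaling raises all regions together in KO, so regions already higher could not turn, and the loss of the lower call at Olfr631 comes with the same shift.

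The 6 regions that passed limma were at Olfr584, Olfr618, Olfr620, Olfr641, Olfr642 and Olfr643. All 6 genes encode odorant receptors, and 3 of them, Olfr641 to Olfr643, stand next to one another. Class I receptors are close copies in places, and the sources used here do not say how reads that match several copies were placed, so the value of any single receptor is less certain than that of the group.

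Olfr618 had the largest fold change of the 57 and the lowest WT mean. Its region (chromosome 7, 103595801 to 103597000) lay upstream of the gene, with its middle at -918 bp from the annotated start. It held 84.1, 26.2 and 60.5 normalised reads in KO, against 12.4, 9.84 and 18.1 in WT (56.9 ± 29.1 and 13.5 ± 4.24, SD, n = 3 each). The groups did not overlap, but the KO values spread more than 3-fold and the lowest of them stood not far above the highest WT value. The log2 fold change was 1.89 ± 0.55 (SE) by limma (adjusted p = 0.0497), and limma-voom gave an adjusted p of 0.126 for it.

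Olfr620 (103611001 to 103612900), the next receptor with a listed region, was covered whole by its region. Its values were 91.7, 70.2 and 79.8 in KO, against 15.95, 32.8 and 34.8 in WT (80.6 ± 10.8 and 27.9 ± 10.4, SD, n = 3 each). The lowest KO value stood far above the highest WT value, with a log2 fold change of 1.57 ± 0.37 (SE) by limma (adjusted p = 0.0471). The recovered reads behind them were 36, 161 and 95 in KO and 9, 40 and 48 in WT.

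Olfr584 (103085301 to 103087000), also covered whole, had 86.6, 73.7 and 73.1 normalised reads in KO, against 19.5, 26.3 and 40.6 in WT. The KO values lay close together and clear of all WT values. Its log2 fold change was 1.46 ± 0.35 (SE) by limma (adjusted p = 0.0471).

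The neighbours Olfr641, Olfr642 and Olfr643 were all higher in KO, and each passed limma close to the threshold. A joint rise was not tested. At Olfr641 the region (104036601 to 104038600) lay upstream of the gene and held 68.8, 74.1 and 103 normalised reads in KO, against 30.1, 20.5 and 49.3 in WT (log2 fold change 1.34 ± 0.38 (SE) by limma, adjusted p = 0.0491). At Olfr642 the region (104047701 to 104050400) was the widest of all at 2700 bp, covered the gene whole and held the most reads of any receptor region in WT. It had 101.9, 126 and 149 in KO, against 44.3, 73.8 and 64.5 in WT (log2 fold change 1.05 ± 0.30 (SE) by limma, adjusted p = 0.0495). At Olfr643 the region (104060601 to 104062200) lay upstream and held 94.3, 45.8 and 61.4 in KO, against 23.1, 30.4 and 22.5 in WT (log2 fold change 1.32 ± 0.37 (SE) by limma, adjusted p = 0.0485). The KO and WT values did not overlap at any of these 3 regions. Olfr644, the next receptor, has a region of 2200 bp (104067601 to 104069800) over the whole gene, with 99.4, 79.8 and 120.2 in KO and 56.7, 58.2 and 44.95 in WT. Its groups were separate too, and it missed the limma threshold (adjusted p = 0.0555).

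**Figure D1:**
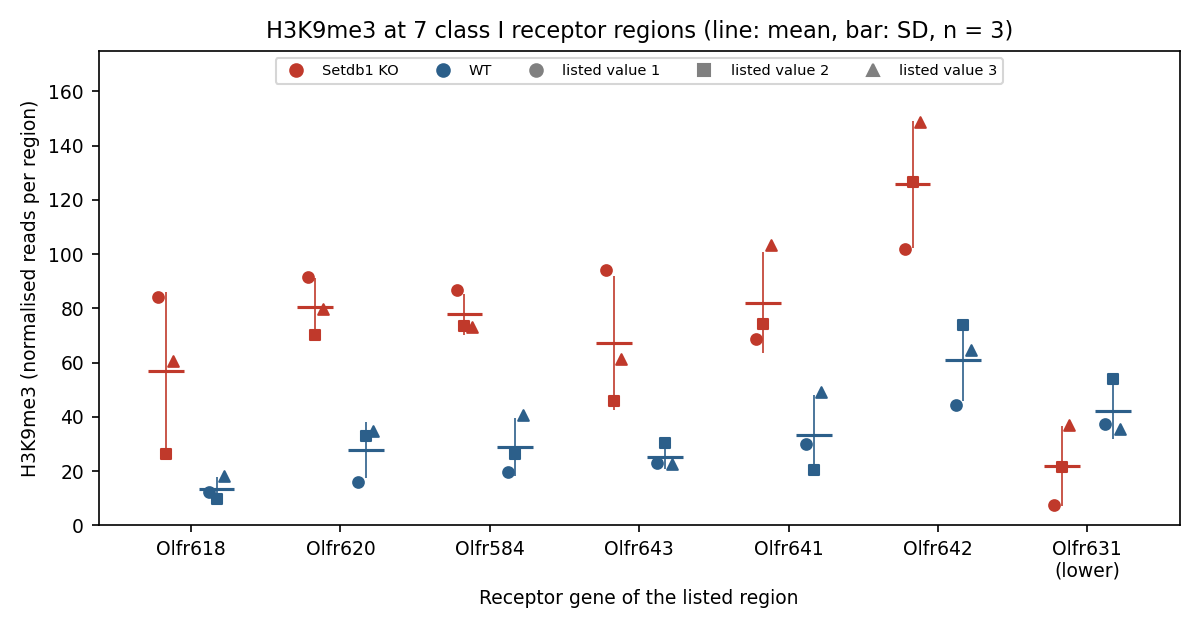
H3K9me3 in normalised reads per region (y axis) in KO (left of each pair) and WT (right) at the 6 receptor regions that passed limma and at the 1 receptor region listed as lower. Points are the 3 listed values of each genotype, lines the means and bars the SD. KO and WT values do not overlap at the 6 regions that passed and overlap at the lower region of Olfr631.

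Among the other regions with large fold changes, none passed limma. Olfr68 (103777301 to 103778300) had 43.3, 40.1 and 44.5 in KO, against 10.6, 17.2 and 15.2 in WT, close to the threshold with a limma adjusted p of 0.0510. Olfr608 (103470001 to 103471200) had 40.8, 45.8 and 47.1 in KO, against 17.7, 4.10 and 26.8 in WT (limma adjusted p = 0.0703). In both the KO values were even and those of WT spread more.

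Olfr670 (104959501 to 104961100) had 45.9, 38.8 and 73.1 in KO, against 28.4, 17.2 and 18.1 in WT (limma adjusted p = 0.0545). Olfr66 (103880201 to 103881200), one of the receptors beside the beta-globin genes, had 30.6, 37.1 and 44.5 in KO, against 10.6, 12.3 and 22.5 in WT (limma adjusted p = 0.0754). The groups were apart at both.

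The receptors on both sides of the beta-globin genes had listed regions of the same direction. On the side of lower coordinates, beside Olfr68, the region at Olfr67 (103787201 to 103788200) held 30.6, 43.6 and 52.95 in KO, against 7.09, 41.0 and 29.7 in WT, where the second WT value lay inside the KO range (limma adjusted p = 0.169, the highest of the 57). On the other side, beside Olfr66, Olfr64 (103892701 to 103893800) held 38.2, 49.7 and 47.9 in KO, against 28.4, 24.6 and 23.9 in WT. Olfr65 (103906001 to 103907700), covered whole, held 86.6, 68.5 and 71.4 in KO, against 23.1, 47.6 and 53.7 in WT. KO and WT were apart at Olfr64 and Olfr65, and neither passed limma (adjusted p = 0.0778 and 0.0721). In between, the table lists Hbb-bh2, a member of the beta-globin locus, described with the neighbours further on.

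A few further receptors mark the range of the values. Olfr592 (103186201 to 103187300) had the highest KO level per kb, 55.6, against 34.7 in WT, with 84.1, 53.2 and 46.2 normalised reads in KO and 37.2, 41.0 and 36.3 in WT. Olfr639 (104011301 to 104012800) had the smallest listed rise, with 71.3, 66.7 and 62.2 in KO and 42.5, 36.1 and 58.0 in WT. At Olfr684 (105156501 to 105157500) the third WT value was the lowest of its group by far, with 35.7, 48.8 and 49.6 in KO and 19.5, 31.2 and 4.35 in WT. None of these 3 passed limma (adjusted p = 0.114, 0.116 and 0.0815).

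The ends of the cluster had values like its middle. The first receptor region, at Olfr564 (102803401 to 102804400), held 30.6, 42.7 and 47.9 in KO, against 7.09, 29.5 and 16.7 in WT. The last, at Olfr686 (105203101 to 105204600), held 43.3, 49.7 and 64.7 in KO, against 21.3, 16.4 and 34.8 in WT. KO and WT were apart at both, and neither passed limma (adjusted p = 0.0858 and 0.0591). Outside the window the nearest receptor regions of the chromosome were also higher in KO, with means of 67.0 in KO and 25.2 in WT at Olfr292 (86686001 to 86687600) and 77.2 in KO and 38.3 in WT at Olfr693 (106677401 to 106678900).

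KO and WT values were fully apart, with all 3 KO values above all 3 WT values, at 50 of the 57 receptor regions (87.7%, against 20.2% of all listed regions) and below them at 0 (against 54.2%). In the rest of the window 113 of 154 (73.4%) were apart upwards and 10 downwards. The 7 receptor regions with overlapping values were at Olfr571, Olfr583, Olfr610, Olfr67, 1 region each of Olfr617 and Olfr635, and the lower region of Olfr631. At Olfr571, for instance, 30.6, 44.5 and 55.5 in KO stood against 35.5, 27.9 and 14.5 in WT. At least 2-fold higher in the authors' deposited table were 20 receptor regions (35.1%, against 7.2% of all listed regions) and 64 other regions of the window (41.6%).

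Only Olfr631 had a region listed as lower. This region (103927101 to 103928100) lay within the annotated gene, which spans 103915062 to 103929911, with its middle 12538 bp from the start. It held 7.64, 21.4 and 36.98 normalised reads in KO, against 37.2, 54.1 and 35.5 in WT, with the third KO value inside the WT range. The limma log2 fold change was -1.13 ± 0.58 (SE) and did not pass (adjusted p = 0.108). A further Olfr631 region, upstream (103912101 to 103913800), was higher, with 68.8, 47.1 and 74.8 in KO and 30.1, 34.5 and 33.4 in WT (limma adjusted p = 0.0594).

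The 6 receptors with 2 listed regions were Olfr594, Olfr617, Olfr631, Olfr633, Olfr635 and Olfr639, and apart from Olfr631 both regions of each were higher in KO. At Olfr594, the upstream region (103216301 to 103217900) held 40.8, 32.3 and 63.9 in KO, against 15.95, 22.1 and 29.0 in WT. Its region over the gene (103219101 to 103220800) held 63.7, 61.9 and 75.6 in KO, against 56.7, 21.3 and 26.8 in WT, where the first WT value came close to the KO values. At Olfr617 the region over the gene (103583301 to 103585200) held 71.3, 89.4 and 104.2 in KO, against 44.3, 60.7 and 57.3 in WT.

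Per kb, the receptor regions sat in a narrow band. At the 56 higher regions the median level was 40.1 normalised reads per kb in KO and 20.5 in WT, where it ran from 11.2 to 34.7. The 143 other higher regions of the window had 40.5 in KO and 20.8 in WT, so listed higher regions of either kind had similar levels within each genotype. Of the 143, 37 lay within 3 kb of a coding receptor, and 18 others lay within 3 kb of a receptor pseudogene only. The 11 other regions listed as lower had the opposite order, with a median of 29.0 per kb in KO and 47.7 in WT, and 10 of these 11 had no overlap between KO and WT. The single lower receptor region, at 21.99 per kb in KO and 42.3 in WT, lay among these. Regions are listed only where the authors found a difference, and levels outside the list were not analysed here. The authors' enrichment is a ratio over a background that the header does not define. In the authors' deposited table its median was 1.75 in KO and 0.79 in WT over the receptor regions, with 55 of 57 above 1 in KO and 15 in WT, against 1.0 in KO and 1.47 in WT over all listed regions.

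**Figure D2:**
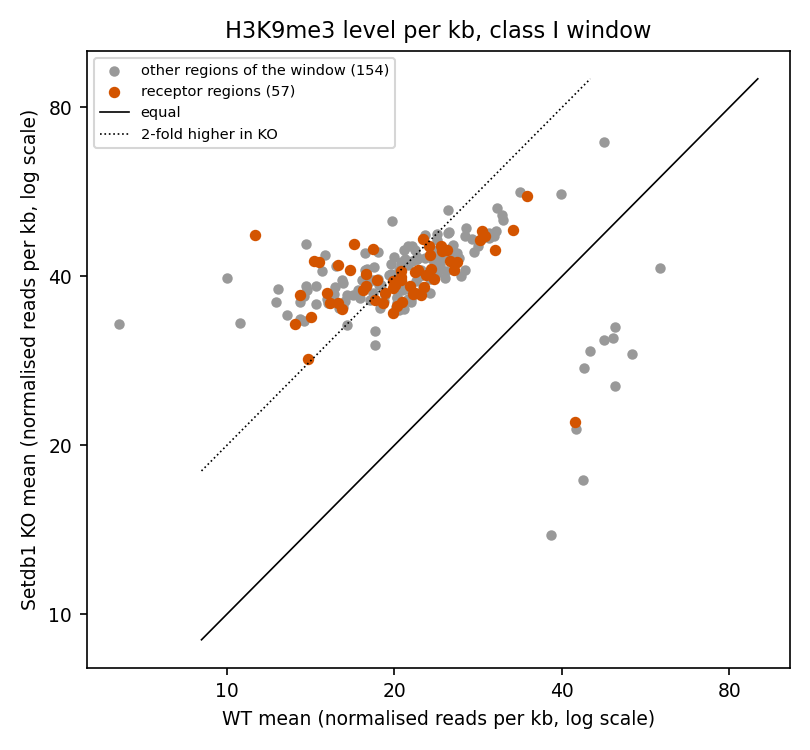
Mean H3K9me3 per kb in KO (y axis) against WT (x axis), both in normalised reads per kb on log scales, for the class I receptor regions and the other listed regions of the window. Each point is 1 region and the diagonal marks equal levels. The higher regions of both kinds lie together above the diagonal, and the lower receptor region lies below it among the other lower regions.

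The higher regions were spread along the whole cluster. In steps of 0.5 Mb from 102.5 Mb on, receptor regions numbered 7, 10, 20, 9, 6 and 5, with median log2 fold changes in the authors' deposited table of 0.84, 0.94, 0.88, 0.90, 0.94 and 1.12. The stretch from 102.0 to 102.5 Mb held 0 receptor regions. The 6 regions that passed limma lay at 103.0 to 103.5 Mb (1), 103.5 to 104.0 Mb (2) and 104.0 to 104.5 Mb (3). Other lower regions of the window were also scattered, with 1, 1, 4, 2, 3, 0 and 0 in the steps from 102.0 Mb on.

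**Figure D3:**
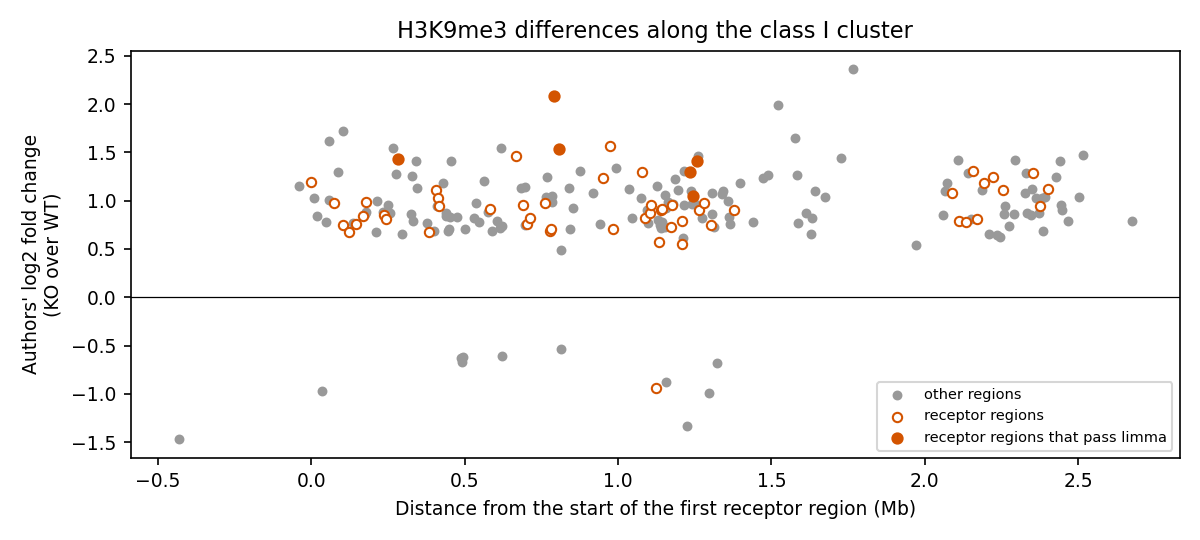
Authors' log2 fold change of KO over WT (y axis) against the distance from the first receptor region in Mb (x axis), for class I receptor regions and other listed regions of the window. Points above 0 are higher in KO. The receptor regions stand above 0 along the whole cluster, apart from 1 at Olfr631.

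RefSeq places 158 class I receptor loci in the window, of which 126 are coding genes and 32 pseudogenes. A receptor region was listed for 51 of the 126 coding genes (40.5%), and for 75 none was. The share was not even along the cluster, with 7 of 28 coding genes at 102.5 to 103.0 Mb, 16 of 27 at 103.5 to 104.0 Mb and 8 of 11 at 104.0 to 104.5 Mb. Pseudogenes carried 0 of the receptor regions by the authors' annotation, but a listed region overlapped 6 of the 32 and lay within 3 kb of 15. Among the other regions of the window, 18 lay within 3 kb of a receptor pseudogene and of no coding receptor. All 18 were higher in KO, 4 of them past limma. Another 38 lay within 3 kb of a coding receptor, with 37 higher, and 82 had neither a receptor within 3 kb nor a gene symbol, with 73 higher and 9 lower.

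The authors' annotation ties a region to a nearby gene, so closeness of the receptor regions to their genes follows from how they were chosen. The median span of these genes is 951 bp. Of the 57, 43 overlapped the annotated gene (75.4%), 23 covered it from end to end (40.4%), 13 lay upstream only and 1 downstream only. Among receptor regions elsewhere in the genome 137 of 213 (64.3%) overlapped their gene and 50 (23.5%) covered it whole. The shares were not tested against each other. Counted from the genes, a listed region of any kind overlapped 50 of the 158 receptor loci of the window. The size of the listed difference was alike by position, with a median log2 fold change in the authors' deposited table of 0.94 at the regions on genes and 0.93 at the 14 others. Receptors on the plus strand (27 regions) had a median of 0.90 and those on the minus strand (30 regions) 0.96 in the authors' deposited table. Region widths ran from 1000 to 2700 bp with a median of 1400 bp, and windows of 1000 bp set the lower bound.

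**Figure D4:**
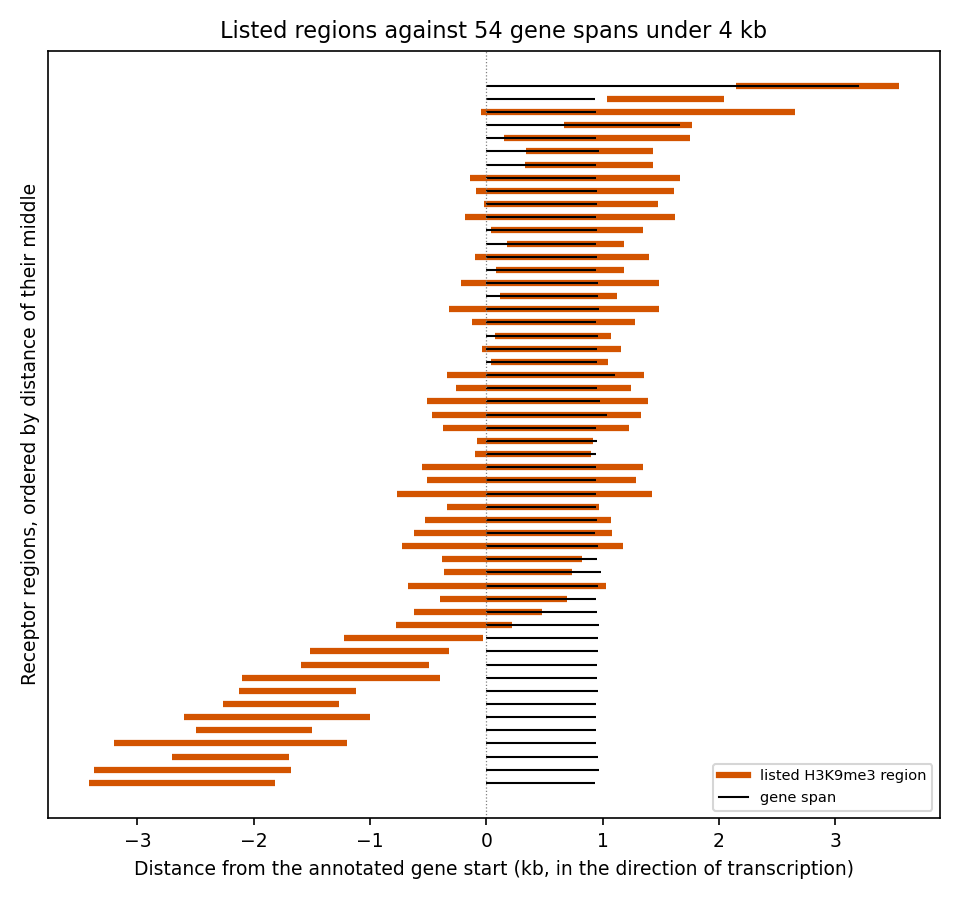
Span of each listed receptor region (orange) and of its gene (black) in kb from the annotated gene start, in the direction of transcription (x axis), with 1 region per line ordered by the distance of its middle. It draws 54 of the 57 regions, leaving out 3 whose gene spans 4 kb or more. Most regions lie on the gene or cover it, and a group lies upstream of the start.

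The same direction was seen at chemoreceptor genes in other parts of the genome. Outside the window, 200 of 213 olfactory receptor regions, at 191 genes, were higher in KO (93.9%) in the authors' deposited table, with a median log2 fold change of 0.91, 13 called higher by limma and 1 lower. Type 1 vomeronasal receptors, which detect pheromones, had 84 of 87 regions higher (96.6%, median 0.76), and type 2 receptors 163 of 192 (84.9%, median 0.78), in the authors' deposited table. Chromosome 7 outside the window, which holds further receptor clusters, had 3513 of 5273 regions higher (66.6%, median 0.65). The class I median is thus near that of the other olfactory receptors, and no difference between these families was tested.

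**Figure D5:**
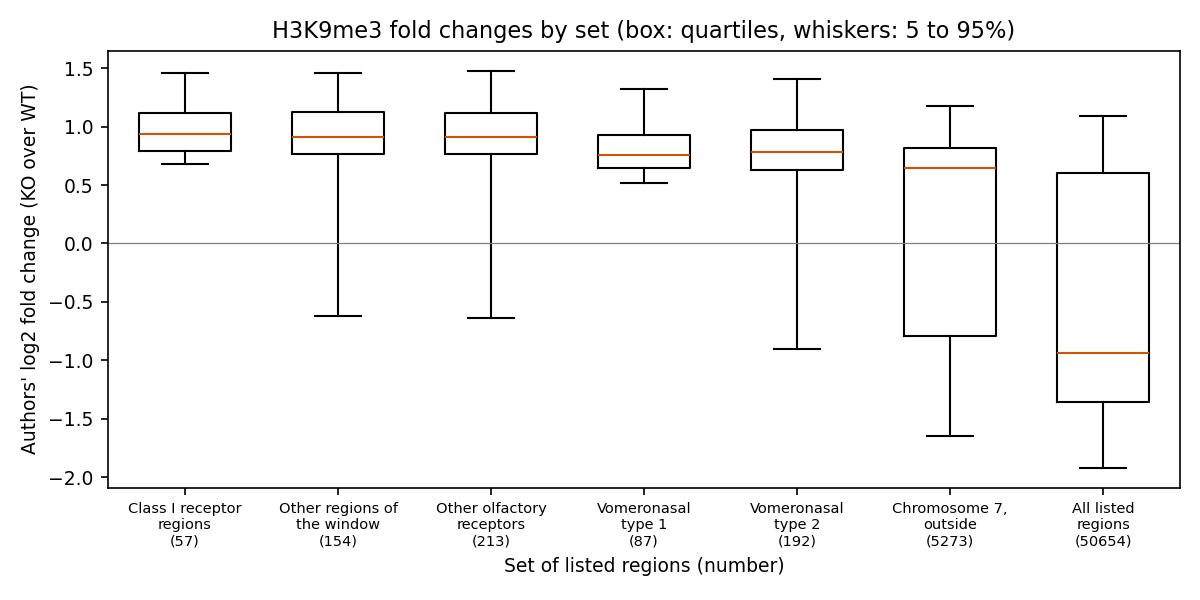
Authors' log2 fold change of KO over WT (y axis) by set of listed regions (x axis, number of regions in brackets). Boxes give quartiles with the median, whiskers the range from 5 to 95%. Class I regions have a median of 0.94 and other regions of the window 0.91, against -0.94 over all listed regions.

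The genes that share the window with the receptors were mostly listed in the same direction. Of 33 neighbours in a list of mainly globin, TRIM, Usp17 and housekeeping genes, 11 had a listed region, 10 of them only higher and Stim1 only lower. Of their 15 regions, 14 were higher and 1, at Trim30a, passed limma. This region (104444201 to 104447300) at Trim30a, of the antiviral TRIM family, had 115 ± 17.7 in KO and 53.5 ± 6.03 in WT (SD, n = 3 each, log2 fold change 1.10 in the authors' deposited table, limma adjusted p = 0.0471). Trim5 (1.23) and Hbb-bh2 of the beta-globin locus (1.12) were listed as higher in the authors' deposited table without passing limma. Stim1, a calcium sensor of the endoplasmic reticulum outside the run of receptors, was listed as lower, with 13.8 ± 14.2 in KO and 38.3 ± 3.93 in WT (SD, n = 3 each, limma adjusted p = 0.0838).

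Few genes of olfactory signalling and of receptor choice had a listed region. Of 33, 8 had one or more, 2 with higher regions only and 6 with lower regions only. Counted by region, 39 of their 59 were higher and 20 lower, whereas 71.1% of all listed regions were lower. All 38 regions at Ano2, the chloride channel of olfactory cilia, were higher, and 1 of them passed limma. The 1 region at Slc17a6, a glutamate transporter, was also higher (log2 0.81 per the authors' deposited table) and did not pass. The Ano2 region with the smallest p (chromosome 6, 125759201 to 125761700) had 107 ± 22.2 in KO and 47.4 ± 15.2 in WT (SD, n = 3 each, limma adjusted p = 0.0497). Lower regions lay at Ebf1, Ebf2 and Ebf3, transcription factors of olfactory neurons, at Adcy3, the cyclase of odorant signalling, at Bcl11b, a transcription factor tied to receptor class choice, and at Atf7ip, a partner of SETDB1. At Bcl11b all 5 regions were lower and 4 passed limma, and at Atf7ip all 9 were lower and 2 passed.

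No H3K27ac peak was called at the class I receptors in either genotype. H3K27ac, a mark of active promoters and enhancers, was called as peaks in each library. In all 6 libraries, 0 peaks lay within 1 kb of any of the 158 receptor loci, and 0 overlapped a receptor region or another listed region of the window. The window as a whole held 20, 20 and 6 peaks in KO and 24, 21 and 8 in WT (15.3 ± 8.08 and 17.7 ± 8.50, SD, n = 3 each; difference -2.33, exact permutation test, two-sided, p = 0.5, smallest possible 0.1). The lowest count of each genotype came with short peak lists, of 11446 peaks in KO and 12446 in WT, against 26344 and 42651 in KO and 31912 and 37289 in WT for the others. The peaks were at genes such as Nup98, Pgap2 and Cavin3, each with a peak in 3 of 3 KO and 3 of 3 WT libraries. Of the 99 peaks, 28 lay between the first and last receptor, the nearest 1375 bp from one. Among 1270 receptor loci elsewhere, 1, 3 and 0 had a peak in KO and 3, 1 and 1 in WT.

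Marker genes were looked up in the same peak lists, within 1 kb of a gene end. Of 9 neural progenitor markers, 2 to 6 had a peak in KO and 1 to 6 in WT, led by Fabp7 and Vim. Of 10 ganglionic eminence markers, 0 had one in KO and 0 to 1 in WT, with Dlx1 and Dlx2 at 0 in all 6 libraries, so the regional identity was not seen by this mark. Of 10 olfactory sensory neuron markers, 1 to 2 had a peak in KO and 0 to 2 in WT, at Adcy3 and at Cnga4, whose end lies beside Fam160a2, and Omp had 0 in all 6. Microglial and blood markers had 0 to 1 of 8 in each genotype and vascular markers 0 of 6 and neuronal markers 0 of 5. What part other cell types had in the H3K9me3 values was not tested. Setdb1 itself overlapped 0 H3K9me3 regions and had an H3K27ac peak in 3 of 3 KO and 2 of 3 WT libraries, which does not check the deletion.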

How the data were processed

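H3K9me3 was measured in 6 libraries and H3K27ac in 6, from 3 KO and 3 WT animals for each mark. Bowtie2 2.3.4.3 and MACS2, the latter without a version, are named in the submitters' processing notes, with mm10. The sources used here do not name the tool of the H3K9me3 comparison. The authors deposited 1 H3K9me3 table, with normalised counts of 3 libraries joined in 1 cell per genotype and their mean as a signal. Per the file headers, it also holds an enrichment ratio, a log2 fold change (KO over WT), a p-value and an adjusted p-value for each region, all made by the authors. The authors' p-values match a G-test on summed values, which leaves out the spread between animals (38105 regions, largest log10 difference 0.00674). For H3K27ac the authors deposited 1 peak list per library, each peak with its score, fold over background, -log10 p and -log10 q.

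Low values were whole multiples of 1 step at every position, within 0.1 reads. The inverse of the step gave relative depths of 17.1%, 100% and 51.9% in KO and 24.6%, 53.2% and 60.1% in WT. For H3K27ac the depth is unknown. limma 3.58.1 (R 4.3.3), tested on simulated data, was fitted to log2(value + 1), with a trended prior and p-values adjusted by Benjamini-Hochberg over all listed regions. Those were selected for a difference on the same libraries, so these adjusted p-values are not unbiased error rates. The added 1 shrinks the fold change of low regions, as at Olfr608 with 1.77, 1.71 and 1.40 for pseudocounts of 0.5, 1 and 5. As a difference of mean logs it can still exceed the authors' value, which was 1.46 there. limma-voom used the recovered reads. Peak counts were compared with exact permutation tests (scipy 1.17.1). The members and lists were chosen with earlier results of these data known. Regions were named by a rule: all past limma, the 8 largest rises, all lower ones, the 3 genes with most and the 3 widest regions, the extremes of WT level, the first and last, and listed neighbours; further ones named here were chosen after their values were seen. A gene that the rule takes is not reported here. Alternatives covered pseudocount, filter, trend, scaling, thresholds, left-out values and peak lists.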

Additional observations from a re-analysis of the deposited data

How the results depend on the processing

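The count of receptor regions listed as higher stayed at 56 at an adjusted p of 0.01. It could not change there, since no receptor region had an authors' adjusted p above 0.00225. With any listed value left out, 56 regions kept the higher direction, which does not repeat the authors' test. Requiring a 2-fold change left 20 higher and 0 lower. Counting each gene once, by its smallest p, gave 51 higher and 0 lower. With each library scaled to the median ratio over all listed regions (a median shift of 0.79 on the log2 scale), the lower count was 0 and the median log2 fold change 1.79, against 0.94 as listed; leaving out single values gave medians of 0.83 to 1.01. The limma count of 6 higher regions (1.24% of all listed regions) became 15 with a pseudocount of 5 (4.45% of all), 3 with 0.5 (0.879%), 0 without the mean-variance trend (0 of all 50654), 33 with limma-voom (14.1%) and 56 after median-ratio scaling (27.7%). Leaving out single listed values gave 0 to 17 higher (0 to 5.89% of all) and 0 to 1 lower. In each of the 12 limma alternatives the fold change was positive at 56 regions. At the 36 named regions no direction was reversed over 432 refitted values, with 53 falling to the other side of the limma threshold and 54 passing it anew. All these regions were listed for a difference in the same libraries, so their directions had little room to change. Restricting the members to regions that overlap their gene, chosen after seeing the data, left 42 higher and 1 lower. The H3K27ac difference was -1.0 peaks at a stricter q and -0.667 in the strongest 10000 peaks, and peaks at receptors stayed at 0 throughout. With the first title number as a replicate block, an alternative chosen after seeing the data, the H3K27ac difference of -2.33 gave p = 0.5 (exact permutation test within numbers, two-sided, 12 arrangements, smallest possible 0.167). No paired analysis was possible for H3K9me3 because the listed values are not tied to animals. At a median of 13 to 108 reads per region and position, differences between single receptors were not tested.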

Other observations

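A neighbour listed as E030002O03Rik, which RefSeq calls Olfm5, an olfactomedin-family gene, lies among the receptors and was higher in KO at both of its listed regions. The region at 104160801 to 104163400 passed limma (adjusted p = 0.0488), with means of 123.5 normalised reads in KO and 61.95 in WT.

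In the H3K27ac data, animals whose titles share their first number can be set side by side. The pair with 1 KO and 1 WT animal had 20 peaks in the window in KO and 24 in WT, and the other animals had 20 and 6 in KO and 21 and 8 in WT. For H3K9me3 no such value can be had, since the listed values are not tied to animals, and there the first number and the genotype cannot be told apart for 4 of the 6 animals.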
